A study of Mus musculus with 9 samples.

Results

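The MHC class II presentation pathway of dendritic cells (DCs) was followed through 9 genes: the classical chains *H2-Aa*, *H2-Ab1* and *H2-Eb1*, the invariant chain *Cd74*, the H2-M chains *H2-DMa* and *H2-DMb1*, the H2-O chains *H2-Oa* and *H2-Ob*, and the transactivator *Ciita*. They were chosen by symbol among the 55471 genes of the count table, and all 9 were among the 16260 genes that passed edgeR's filter on low counts. RNA had been sequenced from wild-type C57BL/6 bone marrow cells grown into DCs with GM-CSF, from female mice of 8 to 20 weeks, and harvested after 6 h. The groups were unstimulated DCs, DCs with lipopolysaccharide (LPS, 100 ng/mL) and DCs with interferon-β (IFN-β, 1000 U/mL), each with 3 libraries that carry the letters A, B and C. GM-CSF cultures of bone marrow hold DC-like and macrophage-like cells side by side, and these libraries are of the bulk culture.

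MHC class II molecules display peptides from endocytosed protein to CD4+ T cells. An alpha and a beta chain assemble in the endoplasmic reticulum with the invariant chain CD74, which blocks the peptide groove and directs the complex to endosomes. There proteases trim CD74, and the H2-M heterodimer (HLA-DM in humans) exchanges the remaining CD74 fragment for peptides, while the H2-O heterodimer restrains H2-M. CIITA is a coactivator that does not bind DNA itself but joins the RFX, CREB and NF-Y factors assembled on the X and Y boxes of class II promoters. In DCs, activation is known to move class II molecules to the cell surface and to shut down *Ciita* transcription over time.

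In GRCm38, 7 of the 9 genes lie together in the class II region of chromosome 17. From *H2-Oa* (start 34092340, end 34095234, plus strand) the order is *H2-DMa* (34119541 to 34139101, plus), *H2-DMb1* (34153072 to 34160230, plus), *H2-Ob* (34238903 to 34254414, plus), *H2-Ab1* (34257689 to 34269419, plus), *H2-Aa* (34282744 to 34287823, minus) and *H2-Eb1* (34305867 to 34316674, plus). *Ciita* lies on chromosome 16 (10480059 to 10528418, plus). RefSeq promoter windows on GRCm38.p6, from 250 bases before to 50 after the start of transcription, were matched for 6 of the 9 genes.

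The 6 promoters are shown because the boxes that CIITA's partners bind are the feature the genes are known to share. The searched letters were an X box core (AGNNACNGA) and a Y box core (ATTGG, the reverse of the CCAAT box bound by NF-Y), on both strands. Capitals mark the X and Y cores where both stood in the same orientation with their first bases 25 to 45 apart, and otherwise any X or Y core. Each stretch has 150 bases and reads in the direction of its gene. It ends at the base before the start of transcription, except for *H2-DMa*, where it covers bases -250 to -101. The sequences are those at chr17:34287824-34287973 (minus strand, *H2-Aa*) and, on the plus strand, chr17:34305717-34305866 (*H2-Eb1*), chr17:34125268-34125417 (*H2-DMa*), chr17:34153041-34153190 (*H2-DMb1*), chr17:34092229-34092378 (*H2-Oa*) and chr17:34238755-34238904 (*H2-Ob*).
H2-Aa: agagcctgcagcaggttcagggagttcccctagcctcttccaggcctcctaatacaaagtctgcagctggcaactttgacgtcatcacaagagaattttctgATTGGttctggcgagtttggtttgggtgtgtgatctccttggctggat
H2-Eb1: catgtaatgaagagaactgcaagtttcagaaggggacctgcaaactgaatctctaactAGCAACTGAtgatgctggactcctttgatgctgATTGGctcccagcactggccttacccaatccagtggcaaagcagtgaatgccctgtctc
H2-DMa: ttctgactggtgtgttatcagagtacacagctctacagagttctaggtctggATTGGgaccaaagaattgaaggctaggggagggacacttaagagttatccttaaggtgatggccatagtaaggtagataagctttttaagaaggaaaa
H2-DMb1: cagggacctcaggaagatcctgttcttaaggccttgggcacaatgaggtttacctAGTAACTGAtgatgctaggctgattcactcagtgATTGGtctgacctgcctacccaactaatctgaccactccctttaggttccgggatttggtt
H2-Oa: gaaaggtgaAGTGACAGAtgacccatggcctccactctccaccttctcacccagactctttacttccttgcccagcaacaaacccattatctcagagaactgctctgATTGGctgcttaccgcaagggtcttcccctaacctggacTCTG
H2-Ob: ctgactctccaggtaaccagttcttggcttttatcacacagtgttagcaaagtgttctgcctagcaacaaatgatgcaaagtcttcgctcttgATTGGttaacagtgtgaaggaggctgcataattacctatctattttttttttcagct

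The spaced X and Y pair was found in *H2-Eb1* (X core from base -92, Y core from base -59) and in *H2-DMb1* (X core from -95, Y core from -61). Of all 32851 promoter windows, 85 (0.259%) held this pair, 17.7% an X core and 37.4% a Y core. *H2-Aa*, *H2-Oa* and *H2-Ob* had a Y core at -48, -43 and -57, so that in 5 of the 6 genes a Y core began between bases -61 and -43. *H2-Oa* also had X cores at -141, at -187 and at -4, the last of which runs past the end of the printed stretch, and none stood both at the spacing and in the orientation of the pair. *H2-DMa* has windows for 2 start sites, of which the first held neither core and the second, printed here, held a Y core at -198. Both windows (34122582 to 34122881 and 34125268 to 34125567) lie inside the gene as placed above. Neither covers its first base at 34119541, so the sequence before that base was not searched. The GAS element (TTCNNNGAA) was in 8.3% of all windows and the IRF element (GAAANNGAA) in 8.56%, and neither was in a window of the 6 genes. These matches describe letters in a window and are not evidence that a factor was bound. Only exact matches to the searched letters were counted. An X or Y box with other letters was therefore missed, and a gene without a match is not shown to lack the box.

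The 9 libraries held from 33425803 to 43735199 gene counts each. Levels below are in CPM, a gene's counts relative to a library size that was scaled by TMM factors. The factors ranged from 0.783 to 0.841 in LPS-activated DCs, from 0.977 to 1.02 in IFN-β-treated DCs and from 1.18 to 1.26 in unstimulated DCs. They thus did not overlap between the groups. Marker genes of stimulation moved, with *Cxcl10*, an interferon-induced chemokine, higher by 9.62 on the log2 scale under LPS and by 7.03 under IFN-β, and *Il12b*, a cytokine subunit of activated DCs, higher by 10.1 under LPS with a value of 0.33 (adjusted p = 0.134, edgeR) under IFN-β. *Itgax*, which encodes CD11c, stood at a mean of 1375, 1602 and 1485 CPM in the unstimulated, LPS and IFN-β groups, while *Cd209a* and *Siglech* were too low to test. The summed CPM of 8 DC markers was 1434 to 1467 per unstimulated library, 1576 to 1753 per LPS library and 1441 to 1671 per IFN-β library, and *Itgax* made up nearly all of it. Within that list LPS raised *Zbtb46* (1.66-fold) and lowered *Batf3* (1.59-fold) and *Clec9a* (3.35-fold), the last a marker of cross-presenting DCs. *Xcr1*, another marker of such cells, rose under LPS (log2 fold change 3.32, adjusted p = 0.00143, edgeR), from a mean of 0.0702 to 0.734 CPM. For 6 macrophage and monocyte markers the summed CPM was 1523 to 1879, 2540 to 3114 and 2146 to 2473. Among these, LPS raised *Adgre1* (log2 fold change 1.23), *Mertk* (1.74), *Fcgr1* (2.20), *Cd14* (3.21) and *Ly6c2* (1.48), while *Csf1r* was 1.96-fold lower. IFN-β raised *Mertk* (1.14), *Fcgr1* (2.54) and *Ly6c2* (1.13) and lowered *Cd14* (-0.27), and *Adgre1* and *Csf1r* did not pass. Such markers include genes that LPS or interferon is known to induce, such as *Cd14* and *Fcgr1*. The part of either list in the results was not tested. In bulk RNA, fewer cells of a type and less RNA per cell cannot be told apart. No source used here says that the libraries of a group came from separate cultures or mice, so p-values measure the spread between these libraries, which may be technical.

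Per kilobase of exon, *Cd74* had the highest level of the 9 genes in unstimulated DCs at 1511 ± 201 CPM per kb (SD, n = 3). The classical chains followed at 241 ± 45.3 for *H2-Eb1*, 230.2 ± 44.6 for *H2-Ab1* and 212 ± 34.1 CPM per kb for *H2-Aa*, with ranges that overlapped from each to the next. Then came *H2-DMb1* at 85.5 ± 2.92, *H2-DMa* at 54.7 ± 2.58, *Ciita* at 8.95 ± 0.973, *H2-Oa* at 2.60 ± 0.336 and *H2-Ob* at 0.376 ± 0.0249 CPM per kb. Apart from the classical chains, neighbours in this order did not overlap in any of the 3 groups. The order was the same in IFN-β-treated DCs. In LPS-activated DCs *H2-Ab1* (315 ± 40.7) stood before *H2-Eb1* (292 ± 34.1 CPM per kb), with overlapping ranges. The lengths count all annotated exons of a gene, 3448 bases for *H2-DMa* and 1681 for *H2-DMb1*, and which exons were transcribed was not tested. The order of these 2 genes rests on those lengths, since in mean unstimulated CPM *H2-DMa* (189) was above *H2-DMb1* (144).

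LPS, which signals through a Toll-like receptor, was compared with no stimulation first. The H2-M chains fell, and the H2-O chains, *Cd74* and *H2-Ab1* rose on the TMM scale. *H2-Aa*, *H2-Eb1* and *Ciita* did not pass the test in this fit, which leaves out the library letter. In this fit 6 of the 9 genes passed (4 higher, 2 lower). Of all tested genes 68.2% passed in either direction, 32.8% higher and 35.4% lower. Under scaling by library size alone none was higher and 5 were lower (*H2-Aa*, *H2-Eb1*, *H2-DMa*, *H2-DMb1* and *Ciita*). With that scaling 12683 of all 16260 tested genes passed, and 21.9% of those were higher. The share among the 9 genes with TMM factors was close to that of the transcriptome. Their median log2 fold change was 0.27, where that of all tested genes was -0.04.

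The change farthest from 0 among the 9 genes was that of *H2-DMa*, which encodes the alpha chain of the peptide exchange factor H2-M. Its level was 198, 180 and 188 CPM in the unstimulated libraries A, B and C, 88.2, 86.7 and 88.7 CPM in the LPS libraries, and 171, 173 and 203 CPM in the IFN-β libraries. The LPS libraries lay below all others and close together, and the unstimulated and IFN-β libraries overlapped. LPS lowered *H2-DMa* by 2.15-fold (log2 fold change -1.10, SE 0.08, adjusted p = 4.21e-07, edgeR quasi-likelihood test with Benjamini-Hochberg adjustment). Among all tested genes, 15.7% had a lower log2 fold change under LPS. *H2-DMb1*, the beta chain, was at 148.5, 139 and 144 CPM without stimulation, 106, 109 and 98.1 CPM with LPS and 124, 125 and 156 CPM with IFN-β. It fell under LPS by a smaller factor of 1.38 (log2 fold change -0.46, SE 0.09, adjusted p = 0.00104, edgeR), and its LPS libraries too lay below all others. Within each library, *H2-DMa* had 1.31 ± 0.0175 raw counts per count of *H2-DMb1* when unstimulated, 0.845 ± 0.0553 when activated by LPS and 1.35 ± 0.0468 when treated with IFN-β (SD, n = 3).

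The 2 H2-M chains share sequence with neighbours, which bears on how reads were assigned. In the GENCODE M21 annotation the exons of *H2-DMa* overlap those of *Brd2*, a bromodomain gene on the opposite strand, over 360 bases (10.4% of its exon length), and the strand setting of the counting is not given in the sources used here. *Brd2* moved the other way, from a mean of 237 CPM to 515 CPM under LPS (2.17-fold, adjusted p = 7.92e-07, edgeR), and its part in the *H2-DMa* result was not tested. Of the 100-base windows in *H2-DMb1* transcripts, 11.3% are identical in *H2-DMb2*, a second beta chain gene. *H2-DMb2* was at 28.6, 22.7 and 31.7 CPM without stimulation and 16.6, 16.3 and 19.6 CPM with LPS, a fall with a log2 fold change of -0.66 (SE 0.14, adjusted p = 0.00187). The fall under LPS of *H2-DMa*, *H2-DMb1* and *H2-DMb2* passed the test under each of the 16 alternative settings.

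The H2-O chains went the other way from H2-M. *H2-Oa* was at 4.003, 3.12 and 3.86 CPM without stimulation, 6.97, 6.23 and 5.93 CPM with LPS, and 5.34, 4.75 and 6.30 CPM with IFN-β. Every stimulated library lay above every unstimulated one, and those of the 2 stimuli overlapped. The LPS rise was 1.74-fold (log2 fold change 0.80, SE 0.14, adjusted p = 0.000487, edgeR). *H2-Ob* was at 2.15, 1.89 and 2.03 CPM without stimulation, 2.58, 3.23 and 4.12 CPM with LPS and 1.97, 1.78 and 2.29 CPM with IFN-β. Its LPS libraries lay above all others, with a rise of 1.64-fold (log2 fold change 0.71, SE 0.19, adjusted p = 0.00561). These are low counts, from 139 to 228 reads per library for *H2-Oa* and from 67 to 134 for *H2-Ob*. With scaling by library size alone, neither rise passed (log2 fold changes 0.22 with adjusted p = 0.172 and 0.14 with adjusted p = 0.537). H2-O is known mainly from B cells, and the 8 B cell markers, *Cd79a* and *Cd79b* among them, summed to between 0.166 and 0.708 CPM per library, with none of them above the filter. An antisense gene, *BC051537*, overlaps 22.8% of the *H2-Oa* exon length on the opposite strand. It had 6 to 25 counts per library and was also higher under LPS (log2 fold change 1.73, SE 0.38, adjusted p = 0.00212, edgeR), and its part in the *H2-Oa* result was not tested.

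**Figure D1:**
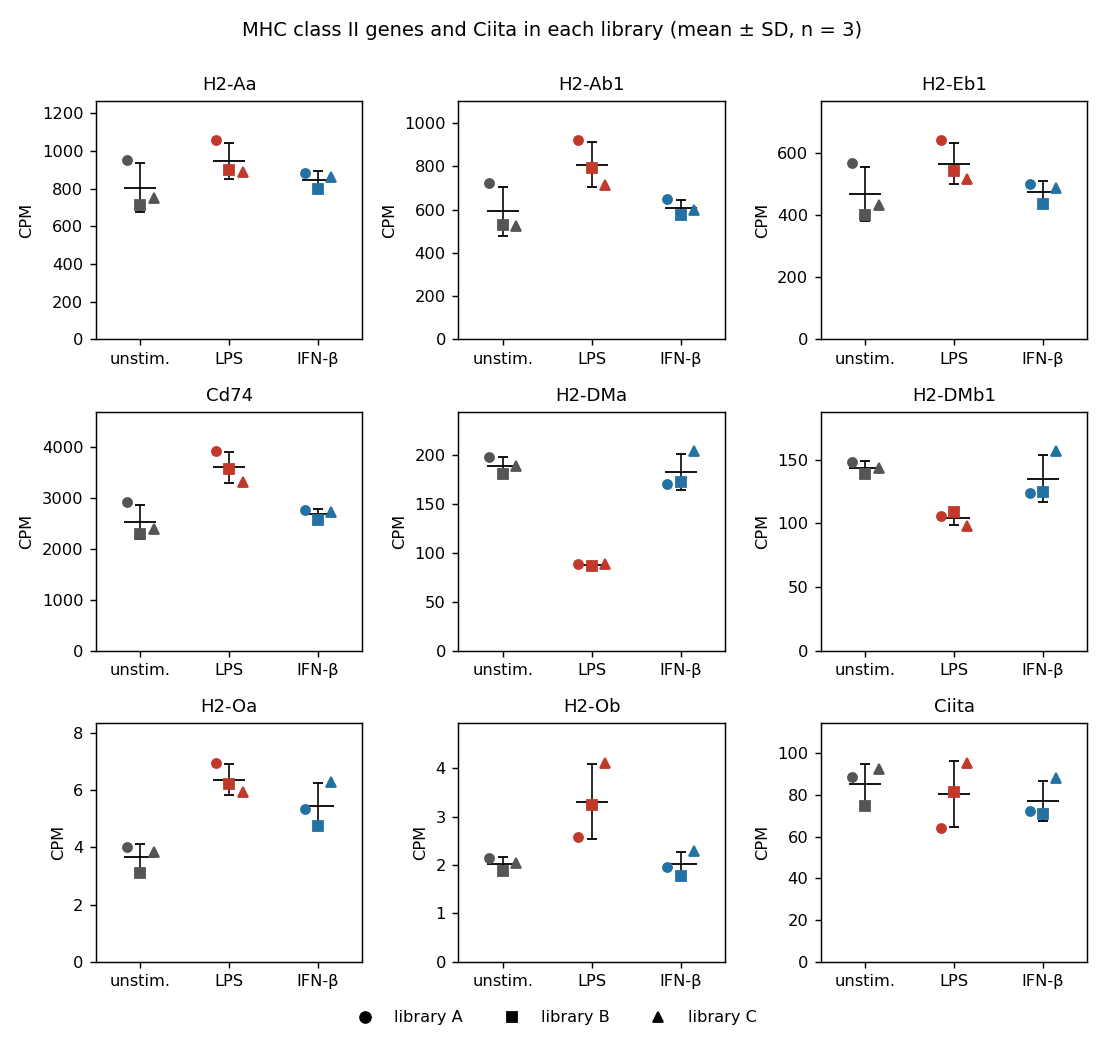
CPM (y axis, linear and from 0) of the 9 genes in each unstimulated, LPS and IFN-β library, where point shapes give the library letter and the bars the mean ± SD (n = 3). The LPS libraries of *H2-DMa* sit at 86.7 to 88.7 CPM, below 170.6 to 203 CPM in all others, while those of *Ciita* overlap the other groups.

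*Cd74* encodes the chaperone of the class II groove and lies on chromosome 18 of GRCm38 (60803848 to 60812652, plus strand), outside the class II region. It was at 2923, 2295 and 2394 CPM in the unstimulated libraries, 3919, 3583 and 3321 CPM with LPS and 2758, 2568 and 2735 CPM with IFN-β. Its LPS libraries lay above all others, a rise of 1.42-fold with TMM factors (log2 fold change 0.51, SE 0.11, adjusted p = 0.00229, edgeR), but a value of -0.07 (adjusted p = 0.456) with scaling by library size alone. That scaling shifted the transcriptome as a whole, by -0.58 in its median log2 fold change under LPS, and took the share of higher genes among all those called under LPS from 48.1% to 21.9%. *H2-Ab1*, the classical beta chain of I-A, was at 724, 527 and 523 CPM without stimulation, 919.6, 792 and 712 CPM with LPS and 649, 577 and 599 CPM with IFN-β. Within letters A, B and C the LPS library was above the unstimulated one by 0.35, 0.59 and 0.44 in log2 CPM. *H2-Ab1* rose 1.37-fold with TMM factors (log2 fold change 0.45, SE 0.14, adjusted p = 0.013), with overlapping ranges, and was -0.13 (adjusted p = 0.294) with library size alone. This call was lost without the unstimulated library B (adjusted p = 0.0613) or without the LPS library A (adjusted p = 0.0542).

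*H2-Aa*, the alpha chain that pairs with *H2-Ab1*, was at 952, 711 and 749.6 CPM without stimulation, 1056, 897 and 887 CPM with LPS and 882.5, 797 and 860.2 CPM with IFN-β. *H2-Eb1*, the beta chain of I-E, was at 568, 402 and 435 CPM without stimulation, 642, 542.5 and 516 CPM with LPS and 502, 436 and 487 CPM with IFN-β. For both genes the unstimulated range overlapped those of LPS and IFN-β, while every IFN-β library lay below every LPS library. Within letters A, B and C, LPS was above no stimulation in log2 CPM for both genes. The differences were 0.15, 0.34 and 0.24 for *H2-Aa* and 0.17, 0.43 and 0.25 for *H2-Eb1*. Their log2 fold changes under LPS were 0.24 (SE 0.12, adjusted p = 0.102) and 0.27 (SE 0.13, adjusted p = 0.088) with TMM factors. With the library letter as a block, which the correlation of same-letter libraries allows, both passed (0.24 with adjusted p = 0.00816 and 0.28 with adjusted p = 0.00403), and 8 of the 9 genes did in all. The block also took the calls over all 16260 tested genes from 11084 to 11950 under LPS. *H2-Aa* and *H2-Eb1* also passed without the unstimulated library A (0.37 with adjusted p = 0.00952 and 0.43 with adjusted p = 0.00632). With library size alone both were lower (-0.35 with adjusted p = 0.00519 and -0.31 with adjusted p = 0.0201). The unstimulated library A held the highest level of its group for all 3 classical chains and *Cd74*. *H2-Ea*, the alpha chain partner of *H2-Eb1* that C57BL/6 mice are known not to make, had 0 to 7 counts per library and was not tested. *H2-Eb2*, a second E beta gene, was at 1.37, 0.584 and 0.948 CPM without stimulation and 2.65, 2.39 and 3.04 CPM with LPS, a rise with a log2 fold change of 1.49 (SE 0.31, adjusted p = 0.0013).

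*Ciita* did not differ beyond its spread in any comparison with TMM factors. It was at 88.8, 74.8 and 92.4 CPM without stimulation, 63.9, 81.4 and 95.5 CPM with LPS and 72.2, 70.6 and 88.3 CPM with IFN-β. The LPS libraries held both the lowest and the highest of the 9 values. Within letters A, B and C, *Ciita* differed from no stimulation by -0.47, 0.12 and 0.05 in log2 CPM under LPS. Under IFN-β the differences were -0.30, -0.08 and -0.07. With the letter as a block neither comparison passed (adjusted p = 0.332 and 0.154, edgeR). The log2 fold change was -0.09 (SE 0.14, adjusted p = 0.601, edgeR) under LPS and -0.15 (SE 0.14, adjusted p = 0.428) under IFN-β. With library size alone *Ciita* was lower under both (-0.66 with adjusted p = 0.00201 and -0.46 with adjusted p = 0.0239), and without the LPS library A its LPS value was 0.05 (adjusted p = 0.729). A p that misses the threshold does not show that the levels were equal. Its exons overlap *Dexi* on the opposite strand over 3.45% of their length, and *Dexi* fell under IFN-β (-0.52, adjusted p = 0.00264, edgeR).

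IFN-β, a type I interferon, was then compared with no stimulation. Of the 9 genes only *H2-Oa* passed the test with TMM factors, higher by 1.49-fold with TMM factors (log2 fold change 0.58, SE 0.14, adjusted p = 0.00691, edgeR), with 0.27 (adjusted p = 0.115) under library size alone, where 5 other genes were lower. Over all tested genes 46.9% passed with TMM factors, 23.6% higher and 23.3% lower. With library size alone 9630 of all 16260 tested genes passed, and 22.3% of those were higher. With TMM factors the other 8 of the 9 genes had log2 fold changes between -0.15 for *Ciita* and 0.08 for *Cd74*, and the median of the 9 was 0.02. *H2-DMb2* had a log2 fold change of -0.46 (SE 0.14, adjusted p = 0.0223), a call that was lost under 4 of the 16 alternatives.

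The difference between the stimuli was tested directly, as IFN-β against LPS. It passed for 5 of the 9 genes, where 49.1% of all tested genes passed, 25.8% higher with IFN-β and 23.3% lower. *H2-DMa* was 2.07-fold higher with IFN-β than with LPS (log2 difference 1.05, SE 0.08, adjusted p = 1.71e-06, edgeR) and *H2-DMb1* 1.30-fold higher (0.37, SE 0.09, adjusted p = 0.00657). *H2-Ob* (-0.72, SE 0.19, adjusted p = 0.00859), *Cd74* (-0.42, SE 0.11, adjusted p = 0.0102) and *H2-Ab1* (-0.41, SE 0.14, adjusted p = 0.0295) were lower with IFN-β than with LPS, and these 3 lost the call with library size alone. The *H2-Ab1* call was also lost without any of 4 single libraries, LPS A, LPS B, IFN-β B or IFN-β C (adjusted p from 0.0572 to 0.102). For *H2-Oa*, *H2-Aa*, *H2-Eb1* and *Ciita* the differences were -0.22, -0.16, -0.25 and -0.06, and of these *H2-Eb1* passed with the letter as a block (-0.25, adjusted p = 0.0123).

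Ratios of raw counts within a library do not depend on the scaling between libraries. *H2-DMa* plus *H2-DMb1* had 0.207, 0.258 and 0.261 counts per count of *H2-Aa* plus *H2-Ab1* in the unstimulated libraries, 0.098, 0.116 and 0.117 with LPS, and 0.192, 0.217 and 0.246 with IFN-β. The ratio was 2.19-fold lower with LPS than without stimulation (log2 difference -1.13, SE 0.14). Per count of *H2-Oa* plus *H2-Ob*, the H2-M chains had 56.3, 63.7 and 56.4 counts without stimulation, 20.3, 20.7 and 18.6 with LPS and 40.3, 45.5 and 41.9 with IFN-β. The 3 groups did not overlap, and the ratio was 2.96-fold lower with LPS (log2 difference -1.57, SE 0.08) and 1.38-fold lower with IFN-β (-0.46, SE 0.08).

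*Cd74* had 1.74, 1.85 and 1.88 counts per count of *H2-Aa* plus *H2-Ab1* without stimulation, 1.98, 2.12 and 2.08 with LPS and 1.80, 1.87 and 1.87 with IFN-β. The log2 difference under LPS was 0.17 (SE 0.04), and 0.05 when *Cd74* was set over *H2-Ab1* alone. The 2 chains of I-A moved unequally, with 1.32, 1.35 and 1.43 counts of *H2-Aa* per count of *H2-Ab1* without stimulation and 1.15, 1.13 and 1.24 with LPS. Both ratios were non-overlapping between LPS and no stimulation, while *Ciita* over *H2-Aa* plus *H2-Ab1* overlapped in all comparisons. Together the 9 genes took 0.591 ± 0.0642% of the counts when DCs were unstimulated, 0.508 ± 0.0255% after LPS and 0.498 ± 0.0117% after IFN-β (SD, n = 3). Over the 21 comparisons of 7 such measures, every non-overlapping pair of groups reached p = 0.1 in the exact two-sided permutation test, the smallest that 3 libraries against 3 allow, and 0.162 after Benjamini-Hochberg adjustment.

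**Figure D2:**
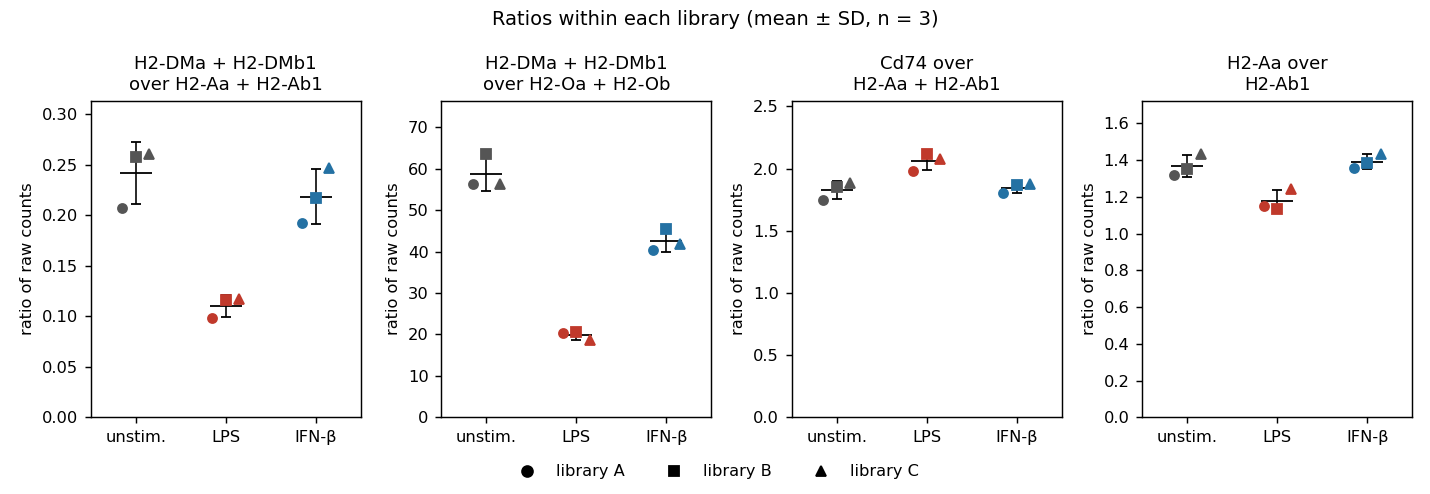
Ratios of raw counts within each library (y axes from 0), with point shapes for the library letter and bars for the mean ± SD (n = 3). H2-M over the I-A chains is 0.098 to 0.117 with LPS against 0.192 to 0.261 in the other groups, and H2-M over H2-O separates all 3 groups.

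The factors that assemble with CIITA at class II promoters went in different directions. Of 10 tested genes, LPS raised 6 and lowered 2, and IFN-β raised 4 and lowered 2, with TMM factors, so that 8 and 6 passed where 68.2% and 46.9% of all tested genes did. Within the RFX complex, which binds the X box, *Rfx5* rose (log2 fold change 0.96 under LPS and 0.75 under IFN-β), while its partners *Rfxank* (-0.76 and -0.26) and *Rfxap* (-0.55 and -0.47) fell. *Kat2b*, an acetyltransferase, rose most (1.95 under LPS and 1.23 under IFN-β). The NF-Y subunits, which bind the Y box, had values between -0.20 and 0.26, of which *Nfya* passed under LPS. With library size alone *Rfx5* and *Kat2b* were the 2 genes that stayed higher under each stimulus. *Nfya*, *Creb1* and *Ep300* were then lower under LPS, and *Crebbp* was at 0.0065 (adjusted p = 0.924). Under IFN-β *Crebbp* was at -0.05 (adjusted p = 0.463) and *Ep300* at 0.03 (adjusted p = 0.664). In all, 7 of the 10 genes were lower under LPS with that scaling and 6 under IFN-β.

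Among 9 genes tied to *Ciita* regulation, LPS raised 8 and lowered 1, and IFN-β raised 7. Of all tested genes, LPS raised 32.8% and lowered 35.4%, and IFN-β raised 23.6%. *Irf1* (2.40 under LPS and 2.01 under IFN-β), which acts at the interferon-γ-responsive *Ciita* promoter, and *Socs1* (2.76 and 1.83), a brake on cytokine signalling, rose under both. *Prdm1*, which encodes Blimp-1, a repressor of *Ciita*, rose under LPS (1.18, adjusted p = 3.3e-07, edgeR) and was at 0.05 (adjusted p = 0.637) under IFN-β. *Irf8* was higher by 1.92 and 0.81, and *Irf4* fell under LPS (-0.43) with 0.04 (adjusted p = 0.789) under IFN-β. The difference between the stimuli passed for *Prdm1* (-1.13), *Irf8* (-1.11), *Socs1* (-0.93) and *Irf4* (0.47). *Irf1* (-0.37, adjusted p = 0.00196) and *Usf1* (-0.22, adjusted p = 0.00697) passed as well with the letter as a block. With library size alone 5 genes stayed higher under each stimulus. Under LPS *Irf2* (0.12), *Spi1* (0.00) and *Usf1* (-0.02) no longer passed, and under IFN-β *Spi1* (0.15) and *Usf1* (0.04) did not. *Prdm1* was then lower under IFN-β (-0.25, adjusted p = 0.012, edgeR). The level of *Ciita* overlapped between all groups.

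Of 9 endolysosomal genes that cut or protect CD74 and antigen, LPS raised 4 and lowered 2 with TMM factors, and IFN-β raised 3. Over all tested genes 68.2% passed under LPS and 46.9% under IFN-β, in either direction. With library size alone *Cst3* and *Sppl2a* stayed higher under LPS and *Sppl2a* under IFN-β, while *Ctsl* (0.11) and *Ctsz* (-0.07) under LPS and *Ctsb* (0.24) and *Ctsz* (0.16) under IFN-β no longer passed. With that scaling 4 genes were lower under LPS (*Ctsb*, *Ctsd*, *Lgmn* and *Ifi30*) and 2 under IFN-β (*Ctsd* and *Ifi30*). *Sppl2a*, the protease that removes the last membrane stub of CD74, rose under both (1.32 and 1.18). *Cst3*, which encodes the cathepsin inhibitor cystatin C, rose under LPS (0.91, adjusted p = 5.6e-05, edgeR), and *Ifi30*, the lysosomal thiol reductase GILT, fell (-0.80, adjusted p = 0.000123). *Ctss*, the main protease for CD74 in DCs, had log2 fold changes of 0.24 (adjusted p = 0.364) and 0.47 (adjusted p = 0.12). With the letter as a block *Ctss* passed under both (adjusted p = 0.00622 and 5.98e-05), and for IFN-β the list went from 3 higher genes to 6 higher and 1 lower, *Ifi30*. The block took the calls over all 16260 tested genes from 7631 to 9151 under IFN-β. Of the genes that set class II turnover at the surface, *Marchf1*, the ubiquitin ligase for class II, rose under both (0.69 and 0.63, the first of which became 0.10 with adjusted p = 0.325 under library size alone). *Cd83*, which counters that ligase, rose under LPS (1.77), with 0.40 under IFN-β (adjusted p = 0.0655, and 0.000827 with the letter as a block).

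MHC class I presentation was measured beside class II. All 11 tested genes of that list rose under LPS and under IFN-β with TMM factors, with median log2 fold changes of 1.52 and 1.22, against 0.27 and 0.02 for the 9 class II genes. Of all tested genes, 32.8% were higher under LPS and 23.6% under IFN-β. With library size alone *H2-D1* no longer passed (0.31 with adjusted p = 0.0739 under LPS and 0.36 with adjusted p = 0.0537 under IFN-β). *Nlrc5*, the class I counterpart of *Ciita*, rose by 2.74 (SE 0.12) and 2.07 (SE 0.12) on the log2 scale. *Tap1*, a subunit of the peptide transporter, rose by 2.56 and 1.89, *H2-K1* by 1.14 and 0.81, and *B2m* by 0.91 and 0.67. IFN-β and LPS differed in 4 of the 11 genes, all lower with IFN-β, and in 11 with the letter as a block. Over all tested genes 49.1% differed, and 9425 of 16260 did with the letter as a block.

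**Figure D3:**
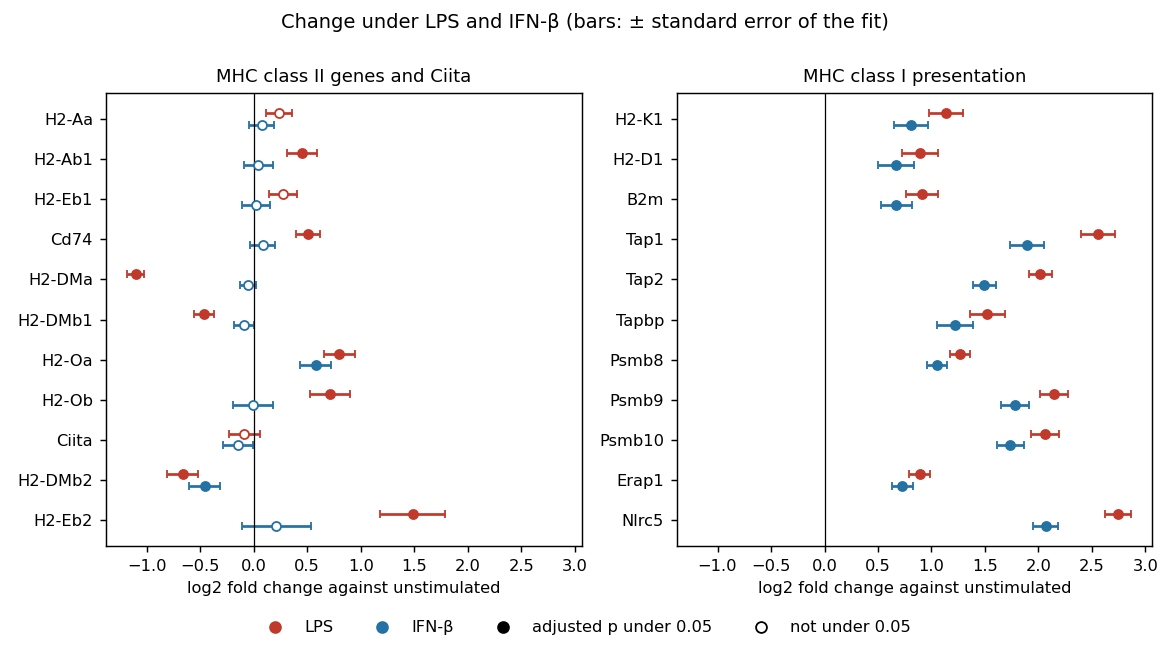
Log2 fold change against unstimulated DCs (x axes, TMM scale, bars ± SE of the fit) of the class II genes, *H2-DMb2*, *H2-Eb2* and 11 class I genes under LPS (red) and IFN-β (blue), with filled points for an adjusted p under 0.05. The class I genes lie between 0.67 and 2.74, and the 9 class II genes between -1.10 and 0.80, where *H2-Aa*, *H2-Ab1*, *H2-Eb1* and *Cd74* fall below 0 under LPS with library size alone.

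The genes with the profile most like that of *Ciita* over the 9 libraries, by root mean square difference of centred log2 CPM with a pseudocount of 0.5 CPM, were *Ostc* (0.079), *Apol8* (0.091), *Npm2* (0.094), *Gm10076* (0.102) and *Ubox5* (0.105). *Apol8* and *Npm2* averaged 0.274 and 0.268 CPM, below the pseudocount, which flattens their profiles, so their nearness to *Ciita* says little. Among the class II genes *H2-DMb1* was nearest at 0.251, with 4032 tested genes nearer, and *H2-DMa* farthest at 0.515, with 12077 nearer.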

How the data were processed

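RNA was measured in 9 bulk libraries of GM-CSF DCs depleted of ribosomal RNA. The authors trimmed adapters with Trim Galore 0.6.0, mapped to mm10 with STAR (2.7.8a in the submitters' processing notes) and deposited raw counts per gene of GENCODE M20, with no normalization. The strand column of the counts is not given in the sources used here.

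Groups came from the labels. The counts were tested with edgeR 4.0.16 in R 4.3.3 (TMM factors, filterByExpr, quasi-likelihood F-tests, 1 term per condition over all 9 libraries). Benjamini-Hochberg adjustment was over all 16260 tested genes, with a threshold of 0.05. The SE of a log2 fold change is its size divided by the square root of F. The model was tested on simulated counts with few changed genes and no pairing between libraries. That simulation differs from these data and does not test the scaling or the use of the letter. Replicates differed by more than sampling noise in every pair. Deviations from the group means correlated across genes at 0.134 to 0.546 between same-letter libraries (9 pairs), all above 0.1, so the letters were taken to pair the libraries and were used as a block in an alternative fit. Positions, exon lengths and overlaps are from GENCODE M21, and H2-Ea-ps there is the H2-Ea of the counts.

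The 9 genes and all gene lists were chosen with earlier results of these data known. The text names the 9 genes, in each list those with the strongest changes or a role tied to a member, the 5 nearest to Ciita, and genes overlapping a member, which were added after the data were seen, as were the ratios of H2-M or Ciita to the I-A chains and of H2-DMa to H2-DMb1. Alternatives were DESeq2 1.42.0, library size only, upper-quartile factors, 2 other low-count filters, the compared groups alone, the block, and each library left out. Some genes of the lists are not reported here by name. T cell markers summed to 0.106 to 0.609 CPM and granulocyte and mast cell markers to 8.66 to 21.2 CPM. Depth limits H2-Oa and H2-Ob most, and errors of single counts cover counting error only.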

Additional observations from a re-analysis of the deposited data

How the results depend on the processing

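Over 16 alternatives to the fit of the 9 genes, 379 log2 fold changes kept their direction and side of the threshold, 12 lost a call, 13 gained one and 28 changed sign. With scaling by library size only, the LPS values of H2-Aa, H2-Ab1, H2-Eb1 and Cd74 were -0.35, -0.13, -0.31 and -0.074, and their IFN-β values -0.23, -0.26, -0.28 and -0.22. The IFN-β against LPS values of H2-Aa, H2-Eb1, H2-Oa and Ciita became 0.12, 0.025, 0.053 and 0.21. This scaling gave 5 changed genes of 9 under IFN-β and 2 between the stimuli, and shifted the median of all genes by -0.58, -0.31 and 0.27 for LPS, IFN-β and their difference. It called 9630 of all 16260 tested genes under IFN-β and 9020 for the difference. It took the higher share of all calls from 50.3% to 22.3% under IFN-β and from 52.5% to 77.9% for the difference. With upper-quartile factors the IFN-β values of H2-Aa, H2-Ab1 and H2-Eb1 were -0.0015, -0.033 and -0.054. DESeq2 called H2-Aa (0.27, adjusted p = 0.0471) and H2-Eb1 (0.31, adjusted p = 0.0432) under LPS, and the fit with no low-count filter called H2-Eb1 (adjusted p = 0.0459). An added minimum of 1 on the absolute log2 fold change left 1, 0 and 1 changed genes for LPS, IFN-β and their difference, and an adjusted p under 0.01 left 3 for the difference.

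Leaving out 1 library moved Ciita between -0.23 and 0.053 under LPS (above 0 without LPS A) and between -0.21 and 0.077 for the difference (above 0 without LPS C, and 0.00054 without IFN-β B). Under IFN-β it moved H2-Aa between -0.012 and 0.21, H2-Ab1 between -0.040 and 0.21, H2-Eb1 between -0.082 and 0.18 and H2-Ob between -0.11 and 0.076. The IFN-β count was 1 to 2, the higher value without IFN-β C, where H2-DMb1 passed (-0.21, adjusted p = 0.0447). Without unstimulated A, 5 endolysosomal genes passed under IFN-β, and without IFN-β B, 2 did for the difference. Over all tested genes 7038 of 16596 and 6858 of 16638 did. Without unstimulated C or LPS C, 7 class I genes differed between the stimuli, as did 8034 of 16528 and 7361 of 16612 tested genes.

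The replicate block gave 8, 1 and 6 changed genes of 9 for LPS, IFN-β and their difference, 7 endolysosomal genes for IFN-β and 7 for the difference, and changed no call of the 9 genes other than those given for H2-Aa and H2-Eb1. Of all 16260 tested genes it called 11950, 9151 and 9425 for LPS, IFN-β and their difference. H2-DMa over H2-Aa alone gave -1.34 for LPS and 1.21 for the difference. The causes of these shifts were not tested.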
